A study of Mus musculus with 15 samples.

Results

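Granzymes, perforin and the other proteins of the cytotoxic granule are the means by which a CD8+ T cell kills its target. The 10 genes described here were chosen by symbol, with earlier results of these data known. They are 5 granzymes (Gzma, Gzmb, Gzmc, Gzmk and Gzmm), perforin (Prf1), the granule proteoglycan serglycin (Srgn), the granzyme B inhibitor Serpinb9, the granule membrane protein Nkg7 and the death ligand Fasl. Of the 10 genes, 9 were among the 11262 listed in the table of naïve and TCR activated cells, where Gzmk was not listed. All 10 were among the 11211 genes in the table of cytotoxic T lymphocytes (CTL).

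The study sequenced mRNA of CD8+ T cells from P14 mice, whose transgenic TCR recognises the LCMV glycoprotein peptide gp33–41. Naïve cells were sorted ex vivo from lymph nodes as DAPI- TCRβ+ CD8+ CD62Lhi CD44lo. TCR activated cells were lymph node cells cultured for 24 h in the presence of IL-2 (20 ng/ml), IL-12 (2 ng/ml) and the peptide (100 ng/ml), and were then sorted as DAPI- CD8+. Another group was activated in the same way with 10 µM IC87114, an inhibitor of the PI3K subunit p110δ (PI3Kdi), with DMSO as the vehicle control. In these groups, each of the 3 biological replicates was a pool of cells from 3 mice, divided between the conditions. CTL were activated for 48 h and kept in IL-2 (20 ng/ml) for 4 days. After a wash on day 6, they were given IL-2 at the same dose again or left without it for 24 h, with 3 biological replicates each. The treatment labels of CTL IL-2 replicates 2 and 3 name other interleukins, and these libraries were grouped by title. All cells carried the P14 TCR, and all activated cells had been exposed to IL-2. The number of mice behind each CTL replicate is not given in the labels.

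The values are FPKM (fragments scaled to exon length and sequencing depth), which allow levels of genes of different length to be compared. The summed FPKM of a library was 438119 to 502972, and replicates of a group had a Pearson r of at least 0.983 across genes on the log2(FPKM + 0.1) scale. The files give no read totals. The spacing of the lowest values placed the effective depth at roughly 9.72 to 14.58 M reads per library. All 7 CD8 T cell markers examined were listed in both tables. Their summed level was 4137 to 4480 FPKM in naïve cells, 913 to 1060 after activation, 1147 to 1312 with PI3Kdi, 1601 to 1663 in CTL with IL-2 and 2599 to 2862 without IL-2. In these bulk samples, fewer cells expressing a gene and less mRNA per cell cannot be told apart.

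Cytotoxic granules are secretory lysosomes. Granzymes are serine proteases that are stored in them bound to serglycin, and perforin forms the pores through which granzymes reach the cytosol of the target cell. Naïve CD8+ T cells hold few such granules, and they arise as the cells become effectors under antigen, IL-2 and other cytokines. Fas ligand kills by a separate route, through the death receptor Fas on the target.

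The granzyme genes lie in clusters (GRCm38.p6, the build named mm10). Gzmb (Entrez 14939) is at chr14:56258836-56262334 on the minus strand, and Gzmc (Entrez 14940) is beside it at chr14:56231397-56241647. Gzma (Entrez 14938, chr13:113093824-113100981) and Gzmk (Entrez 14945, chr13:113171630-113180965) are neighbours on another chromosome. The 250 bases before the annotated start of 3 granzyme genes are given because their mRNA behaved differently in CTL without IL-2, from a large fall for Gzmb, through a smaller fall for Gzma, to no call for Gzmk. The sequences are from RefSeq, 5′ to 3′ in the direction of transcription, from the minus strand. They cover chr14:56262335-56262584 for Gzmb, chr13:113100982-113101231 for Gzma and chr13:113180966-113181215 for Gzmk. None of the 3 windows overlaps an annotated exon. Capitals mark letters of the motifs searched.
Gzmb: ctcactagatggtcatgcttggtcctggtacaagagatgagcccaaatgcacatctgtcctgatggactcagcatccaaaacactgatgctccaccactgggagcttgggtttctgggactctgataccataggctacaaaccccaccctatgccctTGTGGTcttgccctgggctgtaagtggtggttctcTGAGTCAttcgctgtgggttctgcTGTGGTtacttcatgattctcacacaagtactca
Gzma: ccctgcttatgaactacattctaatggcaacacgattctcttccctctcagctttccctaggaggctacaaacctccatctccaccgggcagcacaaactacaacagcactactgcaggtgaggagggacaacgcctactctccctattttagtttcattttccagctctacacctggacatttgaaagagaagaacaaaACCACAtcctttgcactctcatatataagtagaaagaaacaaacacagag
Gzmk: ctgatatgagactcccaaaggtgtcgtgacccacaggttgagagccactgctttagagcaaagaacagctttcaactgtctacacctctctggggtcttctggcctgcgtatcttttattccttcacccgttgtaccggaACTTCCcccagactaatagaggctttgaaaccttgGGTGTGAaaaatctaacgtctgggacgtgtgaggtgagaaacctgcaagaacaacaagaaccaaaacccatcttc

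The motifs were searched on both strands. They were TGANTCA for AP-1, then TTCNNNGAA for STAT factors, then TGTGGT for RUNX factors, then TCACACC for T-box factors, and lastly GGAAGT for ETS factors. The Gzmb window held AP-1 letters 58 bases before the start and RUNX letters 93 and 34 bases before it. The Gzma window held RUNX letters 50 bases before the start, on the other strand. The Gzmk window held T-box letters 75 bases and ETS letters 110 bases before the start, both on the other strand. Among 32851 RefSeq windows of this length, the letters were found in 6.75% for AP-1, 7.02% for STAT, 14.0% for RUNX, 3.33% for T-box and 19.7% for ETS. The 10 members have 12 annotated windows, of which 1 held AP-1 letters, 2 STAT, 7 RUNX, 3 T-box and 5 ETS. These matches describe the sequence and do not show that a factor binds there.

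**Figure D1:**
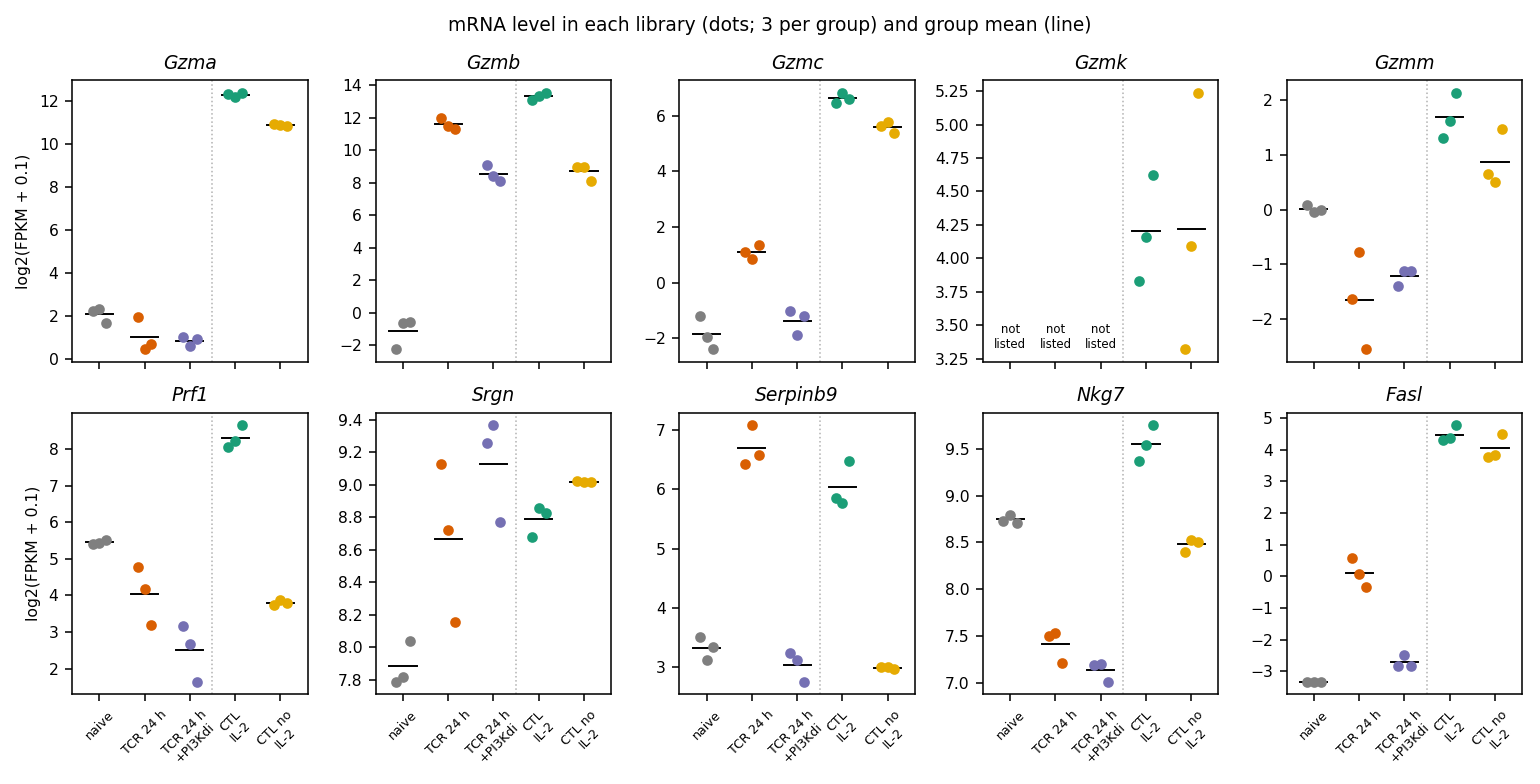
Level of each member as log2(FPKM + 0.1) in the 15 libraries, with 3 dots per group for the replicates and a line for the mean. The vertical axis differs between panels. The dotted line separates tables that were normalised separately. Gzmb spans the widest range, and Srgn stays within a narrow one.

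The first comparison sets the mRNA of the killing machinery after 24 h of TCR activation against that of naïve cells. The groups differ in peptide, IL-2, IL-12, culture and sort gate together, so effects of these cannot be told apart. The members split: in limma's test, 4 of the 9 listed members rose, 4 fell and 1 was not called. A call needed more than a 2-fold change and a Benjamini-Hochberg adjusted p under 0.05, with the adjustment made over every gene of the table. Of all 11262 genes tested, 25.0% were called higher and 23.7% lower. Gzmb, Gzmc, Serpinb9 and Fasl rose, while Gzma, Gzmm, Prf1 and Nkg7 fell. The median log2 fold change of the 9 members was 0.78 (-0.13 without Fasl, which was listed at 0 in naïve cells) and that of all genes was 0.01.

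Granzyme B cleaves proteins in the target cell. Its mRNA was close to the limit of detection in naïve cells, at 0.11, 0.53 and 0.58 FPKM, which corresponds to about 2, 10 and 10 reads. After 24 h of activation, it was 4049, 2904 and 2488 FPKM. These values placed Gzmb between rank 2 and rank 9 of all mRNA in the activated libraries, at 0.660 ± 0.184% (SD, n = 3) of the summed FPKM. The log2 fold change was 12.75 (SE 0.40, adjusted p = 2.4e-10 in limma), and its size depends on the pseudocount because the naïve level was so low.

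Gzma, a granzyme with trypsin-like activity, did not rise with Gzmb. The naïve libraries had 4.56, 4.85 and 3.07 FPKM, and the activated ones had 3.67, 1.25 and 1.51 FPKM, with the first activated library above the lowest naïve one. Gzma changed by -1.05 on the log2 scale (SE 0.34, adjusted p = 0.013 in limma). That call was lost when the libraries were scaled to the same median (-0.94), which moved the median of all genes by 0.12 on the log2 scale, and when replicate 2 was left out (-0.64, adjusted p = 0.18 in limma). The Gzma call was also lost with a pseudocount of 1 (-0.78). Within a library, the FPKM of Gzmb was 1103, 2323 and 1648 times that of Gzma in activated cells.

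Gzmc and Gzmm stayed low in these cells. Gzmc was 0.33, 0.16 and 0.09 FPKM before and 2.03, 1.69 and 2.47 FPKM after activation, and the groups did not overlap (log2 fold change 2.95, SE 0.33). Gzmm, a granzyme encoded on chromosome 10 away from the other members of its family, was 0.96, 0.87 and 0.89 FPKM before and 0.22, 0.48 and 0.07 FPKM after activation (log2 fold change -1.67, SE 0.36). At these levels, the 3 activated libraries held about 4, 9 and 1 Gzmm reads, and about 26, 22 and 25 Gzmc reads. The same libraries held about 82568, 60804 and 40587 reads of Gzmb, which lies beside Gzmc and resembles it. Whether some Gzmb reads were assigned to Gzmc was not tested. With a pseudocount of 1, the change of Gzmm was -0.61 and fell short of the fold limit.

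Perforin mRNA was present in naïve cells, at 42.08, 43.21 and 45.43 FPKM, and was lower after activation, at 27.11, 18.06 and 9.02 FPKM. The groups did not overlap, and the activated libraries spread over a wider range than the naïve ones. Prf1 had a log2 fold change of -1.40 (SE 0.40, adjusted p = 0.0067 in limma). Without replicate 3 it was -0.94, under the fold limit. In the same libraries Gzmb had changed in the opposite direction.

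Nkg7, a membrane protein of cytotoxic granules needed for efficient degranulation, was among the most abundant members in naïve cells, at 424.70, 442.91 and 419.26 FPKM. Activated cells had 181.09, 185.60 and 148.31 FPKM, lower than in each naïve library. Nkg7 thus had a log2 fold change of -1.33 (SE 0.099, adjusted p = 2.0e-07 in limma). Serglycin, the proteoglycan that holds granzymes in the granule, was 220.85, 225.72 and 262.69 FPKM in naïve cells and 559.02, 421.21 and 284.40 FPKM in activated cells. Every activated library was higher than every naïve one, but the change of 0.78 (SE 0.22, adjusted p = 0.0064 in limma) was under the fold limit. Without replicate 3, Srgn was called higher, with a log2 fold change of 1.12.

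Serpinb9 encodes an inhibitor that guards cytotoxic cells against their own granzyme B. It was 11.23, 8.55 and 10.02 FPKM in naïve cells and 86.10, 135.40 and 95.50 FPKM after activation. The rise was 3.38 on the log2 scale (SE 0.18, adjusted p = 1.3e-08 in limma), and the groups were far apart. Fasl was listed at 0 in all 3 naïve libraries, where the table has blank cells, and at 1.38, 0.96 and 0.69 FPKM in activated cells, or about 38, 27 and 15 reads. No fold change is given for it, because the naïve level was 0. It was called higher (adjusted p = 3.7e-07 in limma), and the call was lost with a pseudocount of 1.

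Markers of other cells also differed between naïve and activated libraries. The 5 listed B cell markers of 6 summed to 21.0 to 27.0 FPKM in naïve cells, 4.92 to 7.82 after activation and 3.33 to 4.63 with PI3Kdi, and most of the naïve sum was Cd79b. The 6 listed markers of 7 for memory phenotype CD8 T cells summed to 146 to 161, 317 to 361 and 223 to 235 FPKM in the same order. Among them, Cd44 was 7.1 to 8.02 FPKM in naïve cells and 41.55 to 47.14 FPKM after activation. Il2rb was 72.91 to 91.44 FPKM and 236.71 to 286.13 FPKM in the same order. Ly6c2 was 27.11 to 41.88 FPKM in naïve cells and 4.19 to 7.08 FPKM after activation, and Cxcr3 was also lower. For Ccl5 and Eomes, the naïve and activated groups overlapped. None of the 8 NK cell markers was listed in this table. The part of such cells in the member values was not tested.

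Genes that serve the same granules were examined from lists. On activation, the counts in all these lists are read against the 25.0% of all genes called higher and the 23.7% called lower. Of 14 listed genes of granule packaging and granzyme processing, 2 rose and 3 fell. Ctsw, which encodes cathepsin W, fell from 319 ± 7.80 to 25.5 ± 5.19 FPKM (SD, n = 3; log2 fold change -3.66). Ctsd, the lysosomal protease cathepsin D, fell by 1.70 on the log2 scale. Chst11, a sulfotransferase acting on chondroitin chains, rose by 3.38.

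Among 17 listed genes of granule movement and exocytosis, 3 rose and 6 fell. Stx11, a syntaxin needed for granule release, rose from 1.14 ± 0.205 to 12.9 ± 0.807 FPKM (SD, n = 3). Sytl2, an effector of Rab27, fell from 6.90 ± 0.426 to 0.253 ± 0.0611 FPKM (SD, n = 3), and Lyst, a regulator of lysosome size, fell from 23.9 ± 3.67 to 3.47 ± 0.104 FPKM (SD, n = 3). Of 4 listed serpins related to Serpinb9, 2 rose and 1 fell. Serpinb6b went from 11.7 ± 2.43 to 98.5 ± 29.7 FPKM (SD, n = 3). Serpinb1a (log2 fold change -2.66) and Serpina3g (2.35) stayed under 3 FPKM in all 6 libraries.

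Of 11 death ligands, receptors and adaptors, 4 rose and 2 fell. The cytokine Lta rose by 4.83 on the log2 scale and Tnf by 2.82. Of 12 transcription factors that act on cytotoxic genes, 4 rose and 4 fell. Tbx21, which encodes T-bet, rose from 1.32 ± 0.382 to 86.4 ± 7.88 FPKM (SD, n = 3). Zeb2 rose by 4.05 and Prdm1, which encodes Blimp1, by 3.42 on the log2 scale, both to levels under 5 FPKM. None of the 5 other granzymes on the list (Gzmd, Gzme, Gzmf, Gzmg and Gzmn) was listed in this table.

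The second comparison sets cells activated with PI3Kdi against cells activated without it. With PI3Kdi, 5 of the 9 listed members were lower than in cells activated without it and none was higher. Of all genes, 2.10% were called lower and 3.04% higher. Gzmb, Gzmc, Prf1, Serpinb9 and Fasl fell, and Gzma, Gzmm, Srgn and Nkg7 were not called. The median log2 fold change of the members was -1.55 (-0.91 without Fasl), against -0.01 for all genes. The cells activated without inhibitor serve in this comparison and in the previous one, so the values are not independent of each other.

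Gzmb was 534.90, 332.07 and 270.68 FPKM with PI3Kdi, below every library activated without it. The log2 fold change was -3.08 (SE 0.40, adjusted p = 4.7e-04 in limma). Divided by the library with the same replicate number, the treated level was 0.109 to 0.132 of the untreated one, a narrow range. Gzmb with PI3Kdi was still far above naïve cells (log2 fold change 9.66, SE 0.40). It ranked between 106 and 221 in the treated libraries.

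Perforin fell further with the inhibitor, to 8.85, 6.32 and 3.03 FPKM. All 3 libraries were below the lowest untreated one, which had 9.02 FPKM, although the first came close. Within a replicate number, Prf1 was 0.326 to 0.350 of the untreated level. Its log2 fold change was -1.55 (SE 0.40, adjusted p = 0.022 in limma). That call was lost without replicate 2 (adjusted p = 0.19) and when only the compared groups were fitted (adjusted p = 0.066), both in limma. With the replicate number as a block, which allows for pools divided between conditions, Prf1 was called (adjusted p = 0.0057 in limma).

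Serpinb9 had the largest fitted change among the members in this comparison, on a scale that understates the change of Fasl. It was 9.33, 8.56 and 6.62 FPKM with PI3Kdi, which overlapped the naïve libraries, and the log2 fold change was -3.66 (SE 0.18, adjusted p = 1.4e-06 in limma). Against naïve cells, Serpinb9 differed by -0.28 (SE 0.18, adjusted p = 0.17 in limma) and was not called. Gzmc was 0.39, 0.17 and 0.33 FPKM with PI3Kdi, or about 5, 2 and 4 reads, and its change was -2.48 (SE 0.33). Gzmb had about 10508, 6151 and 4983 reads in these libraries, and whether some were assigned to Gzmc was not tested. Fasl was 0.04, 0.08 and 0.04 FPKM, which is about 1, 2 and 1 reads. Over the 3 libraries, about 4 Fasl reads stood against 80 without inhibitor, a ratio of 0.0509 with a 95% exact binomial interval from 0.0135 to 0.136 that covers counting error only. With a pseudocount of 1, Fasl changed by -0.92 and was not called.

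The other members differed less. Nkg7 was 146.06, 147.72 and 129.28 FPKM with PI3Kdi, or 0.796 to 0.872 of the untreated level in each same-numbered library (log2 fold change -0.28, SE 0.099, adjusted p = 0.077 in limma). The treated and untreated Nkg7 groups did not overlap. Srgn was 611.66, 659.41 and 436.26 FPKM (log2 fold change 0.46, SE 0.22, adjusted p = 0.18 in limma), and its groups overlapped. Gzma (1.90, 1.42 and 1.77 FPKM) changed by -0.18 (SE 0.34, adjusted p = 0.77 in limma). Gzmm (0.28, 0.36 and 0.36 FPKM) changed by 0.45 (SE 0.36, adjusted p = 0.44 in limma).

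Cells activated with PI3Kdi can also be set against naïve cells, which also serve in the first comparison. In that comparison 2 members were higher and 4 lower, with 23.6% of all genes called higher and 21.3% lower. Gzmb and Srgn rose, Srgn by 1.25 (SE 0.22, adjusted p = 3.0e-04 in limma). Prf1 fell by 2.95 (SE 0.40), Nkg7 by 1.61 (SE 0.099), Gzma by 1.23 (SE 0.34) and Gzmm by 1.22 (SE 0.36) on the log2 scale. With a pseudocount of 1, Gzma (-0.92) and Gzmm (-0.52) were no longer called, which left 4 members called. The Gzma call was also lost without replicate 2 (adjusted p = 0.054 in limma) and the Gzmm call without replicate 1 (adjusted p = 0.090 in limma). Gzmc differed by 0.47 (SE 0.33, adjusted p = 0.20 in limma). Fasl was not called (adjusted p = 0.061 in limma), but was called higher with a pseudocount of 0.01 (adjusted p = 6.5e-04 in limma). The median over the members was -0.28 (-0.75 without Fasl) and that over all genes was 0.00.

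**Figure D2:**
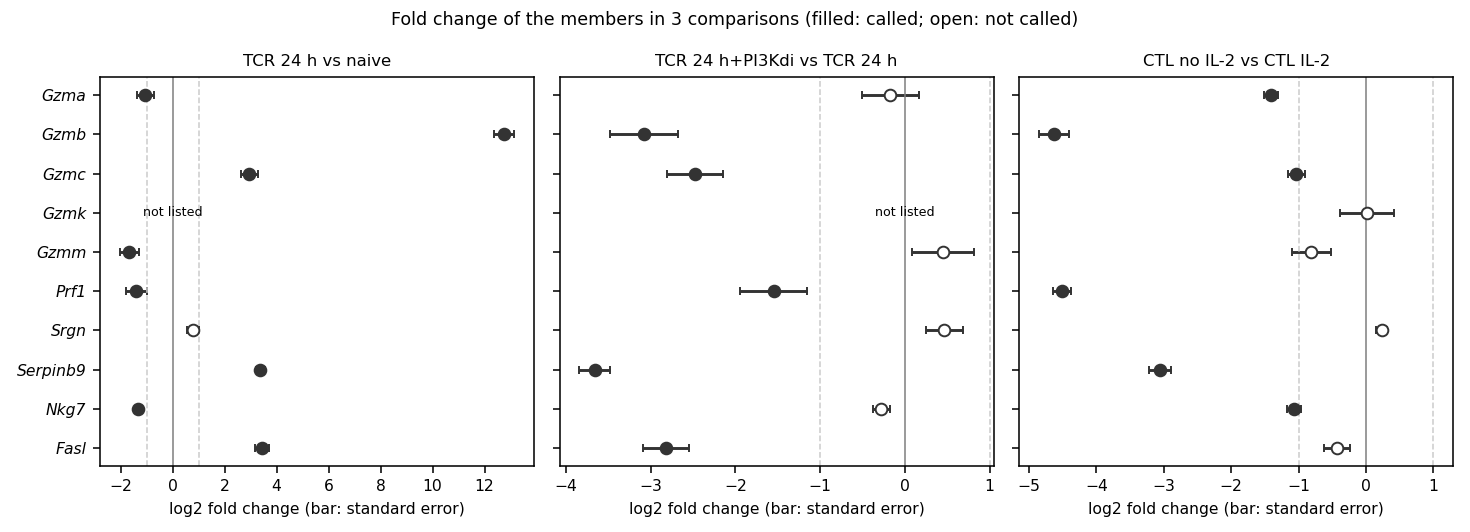
Log2 fold change of each member in 3 comparisons from the limma fits of log2(FPKM + 0.1), with the standard error as a bar. Filled points were called and dashed lines mark 2-fold. The horizontal axis differs between panels, and Fasl in the left panel is set against naïve libraries listed at 0. Gzmb is at 12.75 after activation, at -3.08 with PI3Kdi and at -4.63 in CTL without IL-2.

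The counts in the granule lists are read against the 2.10% of all genes that were lower and the 3.04% that were higher with PI3Kdi. None of the 14 packaging and processing genes was called, a count near that background. Of the 17 genes of movement and exocytosis, Stx11 alone was lower, at 5.62 ± 0.899 FPKM (SD, n = 3; log2 fold change -1.20). Among the serpins, Serpinb6b, which like Serpinb9 belongs to the intracellular clade, was 9.30 ± 1.89 FPKM with PI3Kdi (SD, n = 3; log2 fold change -3.37), and Serpinb1a was higher (1.35). Lta (-3.19) and Tnf (-1.24) were lower among the 11 death ligands, receptors and adaptors. Of the 12 transcription factors, 3 fell and 1 rose. The factor Eomes fell from 17.0 ± 6.01 to 5.99 ± 2.12 FPKM (SD, n = 3), Zeb2 fell by 2.73 on the log2 scale, and Id2 rose by 1.61.

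Over the 9 libraries, the 3 genes most like Gzmb by Pearson r of log2(FPKM + 0.1) were Cfdp1 (0.999), Bhlhe40 (0.999) and Ilf2 (0.998), of 10071 genes compared. As many as 1915 genes had an r over 0.95 with Gzmb. Prf1 had 15 such genes, led by Anapc11 (0.987), Dpysl2 (0.983) and Abcb9 (0.976), all of which were highest in naïve cells and lowest with PI3Kdi. Fasl had 36, led by Il3 (0.988), Mpzl3 (0.988) and Serpine2 (0.987), all of them lowest in naïve cells and highest without inhibitor. The cytokine Il3 was listed at 0 in naïve cells, at 20.5 ± 9.89 FPKM after activation and at 0.147 ± 0.133 FPKM with PI3Kdi (SD, n = 3). The 9 points fall into 3 groups, so these correlations mostly restate the differences between groups.

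The third comparison is of CTL with and without IL-2. All 6 members that were called were lower without IL-2, namely Gzma, Gzmb, Gzmc, Prf1, Serpinb9 and Nkg7, and none of the 10 was higher. Of the 11211 genes tested, 13.9% were called lower and 14.3% higher. Gzmk, Gzmm, Srgn and Fasl were not called. The members had a median log2 fold change of -1.05, against 0.00 for all genes.

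Gzmb was the most abundant mRNA in all 3 CTL libraries with IL-2, at 8739.7, 10436 and 11655 FPKM, and held 2.08 ± 0.241% of the summed FPKM (SD, n = 3). Without IL-2 it was 499.05, 507.26 and 276.50 FPKM, between rank 122 and rank 218. The log2 fold change was -4.63 (SE 0.22, adjusted p = 3.6e-07 in limma), and the mean was 24.0-fold lower. Perforin fell almost as far, from 267.61, 297.89 and 398.91 to 13.27, 14.55 and 13.74 FPKM. Its log2 fold change was -4.51 (SE 0.13, adjusted p = 6.1e-08 in limma), and its mean was 23.2-fold lower. The ratio of Gzmb to Prf1 FPKM within a library was 32.3 ± 2.92 with IL-2 and 30.9 ± 9.40 without it (SD, n = 3), a difference smaller than the spread.

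Gzma was also very abundant in CTL but was lower by a smaller factor. It was 5060.4, 4572 and 5209 FPKM with IL-2, rank 4 in each library, and 1894, 1874 and 1804 FPKM without IL-2, between rank 17 and rank 27. Its log2 fold change was -1.41 (SE 0.11, adjusted p = 2.9e-06 in limma). Gzmb exceeded Gzma with IL-2, at ratios of 1.73, 2.28 and 2.24 within a library, and Gzma exceeded Gzmb without IL-2, where the ratios were 0.263, 0.271 and 0.153. The ratios of the 2 groups did not overlap.

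The other granzymes of the member list were lower in abundance. Gzmc was 87.93, 112.52 and 97.35 FPKM with IL-2 and 49.10, 55.10 and 41.13 FPKM without it (log2 fold change -1.04, SE 0.12). Gzmk was 14.09, 17.73 and 24.56 FPKM with IL-2 and 9.89, 16.96 and 37.57 FPKM without it, and the libraries without IL-2 bracketed those with it. Its change was 0.01 (SE 0.40, adjusted p = 0.98 in limma). Gzmm was 2.38, 2.97 and 4.28 FPKM with IL-2 and 1.46, 1.31 and 2.69 FPKM without it, lower in each same-numbered library, with a change of -0.81 (SE 0.29, adjusted p = 0.028 in limma) that was under the fold limit.

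Further granzymes encoded beside Gzmb and Gzmc on chromosome 14 were listed in this table, and all 4 were lower without IL-2. Gzmd went from 219.7 ± 16.4 to 41.4 ± 9.73 FPKM (SD, n = 3; log2 fold change -2.43). Gzme went from 147 ± 13.8 to 20.5 ± 6.22 FPKM (SD, n = 3; -2.87) and Gzmf from 11.7 ± 1.44 to 2.79 ± 1.24 FPKM (SD, n = 3; -2.15). Gzmg went from 100.0 ± 11.5 to 31.9 ± 8.33 FPKM (SD, n = 3), and Gzmn was not listed. Genes of this cluster resemble each other closely, and reads that match several of them could have been assigned or dropped in ways that the methods do not state, so the values of Gzmc to Gzmg are uncertain.

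**Figure D3:**
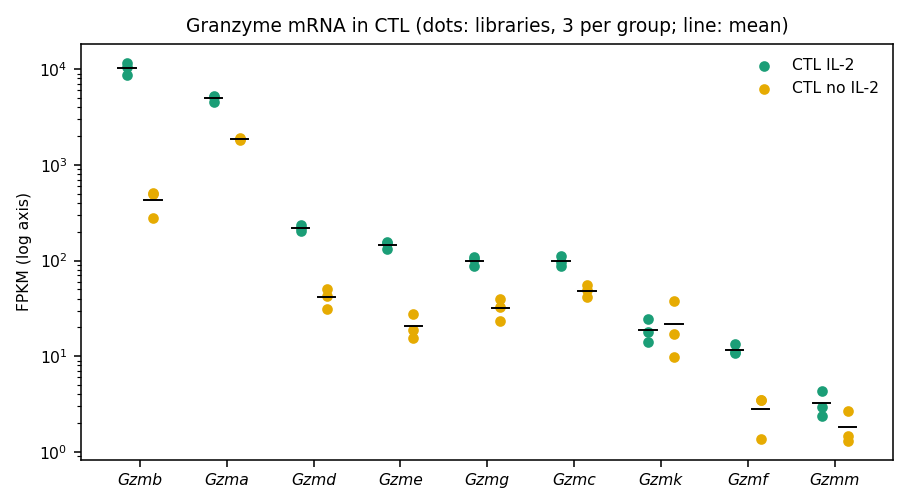
FPKM of 9 granzymes in CTL on a log axis, with a dot for each of 3 libraries per group and a line for the mean. With IL-2, Gzmb is highest at a mean of 10277 FPKM and Gzma follows at 4947. Without IL-2, Gzma is highest at 1857 and Gzmb is at 428, while the Gzmk groups overlap.

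Serpinb9 was 57.91, 54.45 and 89.72 FPKM in CTL with IL-2 and 7.83, 7.86 and 7.71 FPKM without it. Its log2 fold change was -3.06 (SE 0.17, adjusted p = 5.6e-07 in limma). The ratio of Gzmb to its inhibitor within a library was 157 ± 31.4 with IL-2 and 54.7 ± 16.3 without it (SD, n = 3), and the groups did not overlap. Nkg7 was 659.76, 741.50 and 859.06 FPKM with IL-2 and 338.35, 368.95 and 363.37 FPKM without it (log2 fold change -1.07, SE 0.11, adjusted p = 1.5e-05 in limma). Both Nkg7 and Gzmc were near the fold limit, and without replicate 3 their changes were -0.99 and -0.93 and no longer called, which left 4 members called.

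Serglycin differed little. Srgn was 409.29, 463.22 and 453.95 FPKM with IL-2 and 519.88, 518.11 and 517.02 FPKM without it, slightly higher in each library without IL-2 (log2 fold change 0.23, SE 0.081, adjusted p = 0.027 in limma), and was under the fold limit. Fasl was 19.63, 20.29 and 26.99 FPKM with IL-2 and 13.63, 14.24 and 22.45 FPKM without it. It was lower in each same-numbered library, while the groups overlapped (log2 fold change -0.43, SE 0.19, adjusted p = 0.070 in limma).

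Markers of other cell types were checked in the CTL libraries. Of 8 NK cell markers, 3 were listed, with a sum of 36.9 to 60.2 FPKM with IL-2 and 11.6 to 16.1 without it. Most of that sum was Fcer1g, which encodes a signalling chain shared by several receptors, and the defining NK receptor gene Ncr1 was not listed. Klrb1c was 1.20 to 1.88 FPKM with IL-2 and 2.17 to 3.41 FPKM without it. The sum of 3 listed mast cell markers of 4 was 6.34 to 9.69 FPKM with IL-2 and 46.7 to 63.3 without it. Within it Cpa3 was 2.20 to 6.11 and 40.33 to 59.75 FPKM, while Mcpt8 was 2.66 to 3.62 and 0.88 to 1.22 FPKM. The sum of 3 myeloid and dendritic cell markers of 8 was 5.57 to 9.67 and 13.7 to 21.7 FPKM. The 1 listed B cell marker of 6, Cd79b, was 2.74 to 6.30 FPKM with IL-2 and 10.8 to 20.6 FPKM without it. Cd4, the 1 listed CD4 T cell marker of 2, was 0.05 to 0.39 and 0.92 to 1.92 FPKM. The 7 markers of memory phenotype CD8 T cells summed to 1078 to 1473 FPKM with IL-2 and 2616 to 2887 FPKM without it. Most of that rise was Ccl5, at 49.92 to 106.42 FPKM with IL-2 and 1586.06 to 1724.06 FPKM without it. Cxcr3 and Cd44 were also higher without IL-2. Il2rb was lower (495.04 to 598.56 and 288.63 to 316.09 FPKM), as was Eomes (75.78 to 162.97 and 9.97 to 20.77 FPKM). For Ly6c2 and Klrg1, the groups overlapped. The part of these cells in the member values was not tested.

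In CTL without IL-2, the counts in the granule lists are read against the 14.3% of all genes that were higher and the 13.9% that were lower. In granule packaging and processing, 3 of 14 rose and 2 fell. Calr, which encodes the chaperone calreticulin, fell from 778 ± 106 to 168 ± 17.6 FPKM (SD, n = 3), Chst11 fell by 1.32 on the log2 scale, and Ctsl, the lysosomal protease cathepsin L, rose from 0.277 ± 0.211 to 2.93 ± 0.191 FPKM (SD, n = 3). Of 17 genes of movement and exocytosis, 2 rose and 4 fell. Lyst rose by 2.01 and Sytl1 by 1.20, while Stx7, a syntaxin of the endosomal system, fell by 1.18 on the log2 scale.

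Of 6 listed serpins, Serpina3f was lower (-1.98) and Serpinb6a higher (1.11). Among the 11 death ligands, receptors and adaptors, 3 fell and 1 rose. Lta fell from 195 ± 30.9 to 9.69 ± 1.30 FPKM and Tnf from 52.5 ± 8.54 to 5.06 ± 0.585 FPKM (SD, n = 3), and Bid fell by 1.35 on the log2 scale. Of the 12 transcription factors, 3 rose and 1 fell. Tcf7, which encodes TCF-1, rose from 15.3 ± 4.89 to 599 ± 98.3 FPKM (SD, n = 3), Stat4 rose by 1.66, and Eomes fell from 114 ± 44.5 to 14.0 ± 5.89 FPKM (SD, n = 3).

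The weight of these genes in the transcriptome was measured as the share of a library's summed FPKM that the members held. It was 0.159 ± 0.00626% in naïve cells, 0.811 ± 0.218% after activation and 0.245 ± 0.0536% with PI3Kdi (SD, n = 3). CTL with IL-2 had 3.24, 3.32 and 3.76%, and CTL without IL-2 had 0.739, 0.757 and 0.681%. The mean difference between the CTL groups was -2.71 percentage points, and the groups did not overlap. The differences were 0.652 points on activation and -0.567 points with PI3Kdi. The exact two-sided permutation test gave p = 0.1 for each of the 3 differences, which is the smallest value that 3 against 3 libraries allow.

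The differences in summed share between the naïve and activated groups were not seen without Gzmb. The share of the other members was 0.159, 0.151 and 0.161% in naïve, activated and PI3Kdi treated cells, and the 3 groups overlapped. This sum combines members that changed in opposite directions. On activation, Nkg7 went from 0.0940 to 0.0359% and Srgn from 0.0518 to 0.0885% of the summed FPKM. In CTL, the members other than Gzmb held 1.36 ± 0.0952% with IL-2 and 0.631 ± 0.0115% without it (SD, n = 3). Gzma made up most of this, at 1.01 ± 0.0852% and 0.412 ± 0.0119% of the summed FPKM (SD, n = 3).

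**Figure D4:**
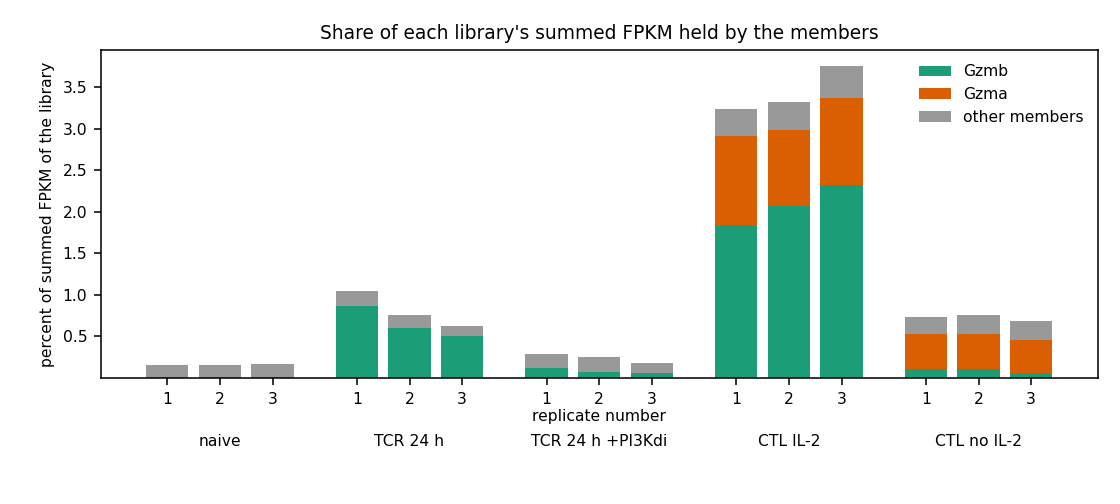
Share of each library's summed FPKM, in percent, held by Gzmb, Gzma and the other members, as stacked bars for the 15 libraries. The bars reach 3.24 to 3.76% in CTL with IL-2 and 0.681 to 0.757% without IL-2. Bars of naïve cells hold almost no Gzmb.

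The tables of naïve and activated cells and of CTL were normalised separately, and levels between them are given side by side with no test. Gzma was at most 4.85 FPKM in any naïve or activated library and at least 1804 FPKM in any CTL library. Gzmc was at most 2.47 FPKM in the former and at least 41.13 FPKM in the latter. Prf1 was 42.08 to 45.43 FPKM in naïve cells and 13.27 to 14.55 FPKM in CTL without IL-2. For Gzmb, the CTL without IL-2 (276.50 to 507.26 FPKM) lay in the range of cells activated with PI3Kdi (270.68 to 534.90 FPKM). Fasl was at most 1.38 FPKM at 24 h and 13.63 to 26.99 FPKM in CTL. Srgn ranged from 220.85 to 659.41 FPKM over all 15 libraries, the smallest ratio of highest to lowest among the 9 members listed in both tables.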

How the data were processed

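mRNA was sequenced from 9 libraries of naïve and activated cells and 6 of CTL. The authors deposited 2 tables of FPKM, one for each set: per their methods and the labels, reads were aligned with STAR 2.5.2b to mm10, counted per gene with Subread 1.5.1, filtered for low expression, TMM normalised in edgeR and divided by exon length. Whether counting used strand is not given in the sources used here, and the steps for CTL were taken to be the same. Values have 2 decimals, and 1039 blank cells of the first table were read as 0.

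Values log2(FPKM + 0.1) were fitted with limma 3.58.1 in R 4.3.3, with an intensity trend, in 1 fit per table over all its genes. The fits were also run on simulated data, with independent normal noise on the log2 scale and 200 changed genes with a mean of at least 1 FPKM. For TCR activation, 96.5% of these were recovered with 4 false calls, and for CTL 98.5% with 0 false calls. The simulation does not cover changes of genes with lower levels or libraries that share a pool. A gene was called at an adjusted p under 0.05 and a fold change above 2 or below 0.5. The log2 scale with a pseudocount understates changes of low genes. For shares, the test was an exact permutation test, two-sided. Other steps ran in Python 3.11.15 with numpy 2.4.6, matplotlib 3.10.9, scipy 1.17.1 and pandas 2.3.3.

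The members and gene lists were chosen with earlier results of these data known. Named genes were the members, up to 3 called genes with the largest change per list and comparison, and the 3 genes most correlated with Gzmb, Prf1 and Fasl among those with a mean of at least 1 FPKM. A gene that this rule names is not reported here. Other granzymes beyond the largest 3 were named after their values were seen. The labels divide each pool of naïve and activated cells between conditions. Deviations of same-numbered libraries from their group means correlated at 0.27, 0.20 and 0.51 for PI3Kdi against TCR, and at 0.12, 0.17 and 0.26 for CTL, across genes. With naïve cells, the correlations were -0.18 to 0.23. Alternatives were the pseudocount, a minimum mean FPKM, median scaling, the replicate block, no intensity trend, leaving out a replicate, other fold limits, and only the groups compared.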

Additional observations from a re-analysis of the deposited data

How the results depend on the processing

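Of 425 values of single members under the alternatives, 400 kept their direction and side of the threshold, 15 were no longer called, 7 became called and 3 reversed, none of them called. With the replicate number as a block, the calls of members were 8 for TCR activation, 5 for PI3Kdi against TCR activated cells, 6 for PI3Kdi against naïve cells and 6 for CTL, the same as without the block, and all 37 member values kept their side of the threshold. For TCR activation, 5 members instead of 8 were called with a pseudocount of 1 and also among genes with a mean of at least 1 FPKM. For PI3Kdi against TCR activated cells, 3 instead of 5 were called among genes with a mean of at least 1 FPKM. That minimum leaves fewer members to test. Leaving out each replicate in turn gave 7 to 8 calls for TCR activation, 4 to 5 for PI3Kdi against TCR activated cells, 5 to 6 against naïve cells and 4 to 6 in CTL. Without Gzmb, the difference in summed share reversed, to -0.00733 percentage points on activation (p = 0.8) and 0.00941 points with PI3Kdi (p = 0.7), by the exact permutation test. Values that were not called and changed sign were Gzma with PI3Kdi (-0.37 to 0.19 when a replicate was left out, above 0 without replicate 1), Gzmm with PI3Kdi (-0.043 to 0.84, below 0 without replicate 3) and Gzmk in CTL (-0.29 to 0.27, below 0 without replicate 3). The cause was not tested. Levels under 1 FPKM rest on few reads, which limits Gzmb in naïve cells, Gzmc, Gzmm and Fasl.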
